A study of Mus musculus with 18 samples.

Results

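The genes described here encode ligands through which tumor and myeloid cells restrain or engage lymphocytes and macrophages, together with Ido1. They are Cd274 (PD-L1), Pdcd1lg2 (PD-L2), Lgals9 (galectin-9), Pvr (CD155), Cd80, Cd86, Ido1 (indoleamine 2,3-dioxygenase) and Cd47, chosen by name. All 8 had a row among the 50600 genes of the table, and all 8 passed the filter on low counts. RNA was taken from whole subcutaneous B16F10 tumors, a mouse melanoma line, grown in the right flank of female C57BL/6 mice 5 to 6 weeks old. Each of the 9 groups held 2 tumors, collected 24 h after the last intratumoral injection. After 1 dose the groups were PBS, unloaded extracellular vesicles (EVs), free CDN2 at 20 µg, free CDN2 at 100 µg and exoCDN2 at 0.1 µg. After 2 doses, given 3 days apart, they were PBS, free CDN2 at 20 µg, exoCDN2 at 0.1 µg, and a pair of tumors given CDN2 whose labels state no amount. The titles of the exoCDN2 tumors give no amount either, and 0.1 µg is the amount the study states for its sequenced tumors. CDN2, named CL656 in the labels, is a cyclic dinucleotide that activates STING. In exoCDN2 it is carried by EVs from engineered HEK293 cells. No group carried a genetic change in the host. The EVs are of human origin, and unloaded EVs were sequenced after 1 dose alone.

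STING senses cyclic dinucleotides in the cytosol and switches on IFN-β and many genes that respond to interferon. Several checkpoint ligands are among the genes that interferons can raise, on tumor cells as well as on macrophages and dendritic cells. PD-L1 and PD-L2 bind PD-1 on T cells and dampen their activity. CD80 and CD86 give T cells the costimulatory signal through CD28 and are also the ligands of the inhibitory receptor CTLA-4. Galectin-9 is a ligand of TIM-3 (Havcr2), CD155 binds the inhibitory receptor TIGIT and the activating receptor CD226, and CD47 binds SIRPα on macrophages and inhibits phagocytosis. Ido1 degrades tryptophan to kynurenine.

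The members lie on 5 chromosomes of GRCm38. Cd274 (chr19:29367455-29388095) and Pdcd1lg2 (chr19:29410919-29471161) are neighbours on the plus strand of chromosome 19, with 22.8 kb between them. Cd80 (chr16:38455561-38496335), Cd86 (chr16:36603869-36666081) and Cd47 (chr16:49800533-49915010) share chromosome 16, where 1789 kb separate Cd86 from Cd80. Lgals9 is at chr11:78962974-78984946, Pvr at chr7:19903578-19921160 and Ido1 at chr8:24584136-24597009, all 3 on the minus strand. The 250 bases before the RefSeq start were searched, on both strands, for the letters of an interferon-stimulated response element (GAAA, any 2 bases, GAAA), a gamma-activated site (TTC, any 3 bases, GAA) and a kappaB site (GGG, any 2 bases, TTTCC). RefSeq promoters (GRCm38.p6) were at hand for 5 of the 8 members, Cd274, Pdcd1lg2, Lgals9, Cd80 and Cd47. A single match was found among them, an interferon-stimulated response element on the reverse strand of Lgals9, 55 to 46 bases before the start. These letters occur in 2.98% of all 32851 promoters of that length, those of the gamma-activated site in 7.02% and those of the kappaB site in 1.41%. The sequences below are shown because Lgals9 carried the match, here in capitals, and because Cd274 had the largest called change after 1 dose and none of these letters in its window. The Lgals9 stretch is chr11:78984947-78985174, minus strand, cut where the gene model begins, and the Cd274 stretch is chr19:29367188-29367437, plus strand.
Lgals9: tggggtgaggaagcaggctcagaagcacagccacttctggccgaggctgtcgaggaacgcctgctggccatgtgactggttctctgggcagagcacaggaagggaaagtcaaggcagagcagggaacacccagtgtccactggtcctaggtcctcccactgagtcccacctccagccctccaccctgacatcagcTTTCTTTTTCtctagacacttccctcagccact
Cd274: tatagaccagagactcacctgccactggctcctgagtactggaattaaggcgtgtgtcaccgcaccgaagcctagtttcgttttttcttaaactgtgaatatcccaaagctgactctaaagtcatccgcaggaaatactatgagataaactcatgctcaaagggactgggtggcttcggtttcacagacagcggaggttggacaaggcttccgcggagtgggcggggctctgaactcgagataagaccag
A match is a description of the letters and was not tested as a binding site.

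The libraries held 21608895 to 65983630 expected counts per tumor, and the shallowest was tumor 1 of the group given 2 doses of CDN2 (20 µg). The 2 tumors of that group also stood apart from each other, with a Pearson r of 0.950 across genes and 27.4% of genes over 2-fold apart, against 4.02% to 12.2% in the other groups. Melanoma markers summed to 6995 and 12733 CPM (counts per 1000000 counts, scaled by TMM) in these 2 tumors and to between 15205 and 25265 CPM in the other 16. Markers of muscle summed to 2955 and 1529 CPM there, against 2.53 to 456 CPM elsewhere. Every member result that rests on this group is therefore given with its value without tumor 1 where that value changed a call. Calls of the other gene lists and of the markers were not checked without that tumor. In RNA from whole tumors, fewer cells of a type and less RNA per cell cannot be told apart.

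The 8 genes covered a wide range of levels. Per kilobase of exon, Lgals9 was the highest member in all 18 tumors, between 23.7 and 218 CPM per kb. Cd274 spanned 1.51 to 101 CPM per kb, a ratio of 66.6 between the highest and lowest tumor and the widest among the 7 members detected in every tumor. Cd47 (5.78 to 27.0 CPM per kb) and Pvr (5.83 to 28.4) varied least, with ratios of 4.68 and 4.88. Cd86 lay between 0.264 and 3.50 CPM per kb, Cd80 between 0.0888 and 1.67, Pdcd1lg2 between 0.0521 and 1.51, and Ido1 between 0 and 1.68. The order changed with treatment. Cd274 ranked 3 or 4 in the PBS and unloaded EV tumors and in the pair with no stated amount, behind Lgals9 and Cd47, Pvr or both, and ranked 2 in all 10 tumors given a stated amount of CDN2 or exoCDN2. Pdcd1lg2, next to Cd274 on the chromosome, stayed among the 3 lowest members in every tumor. The level of Cd274 per kb was 17.4 to 51.1 times that of Pdcd1lg2 in the PBS and unloaded EV tumors, 137 to 889 times after 1 dose of either agonist and 59.0 to 85.2 times after 2 doses of a stated amount. These ratios rest on few Pdcd1lg2 counts, 4 to 68 per tumor.

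**Figure D1:**
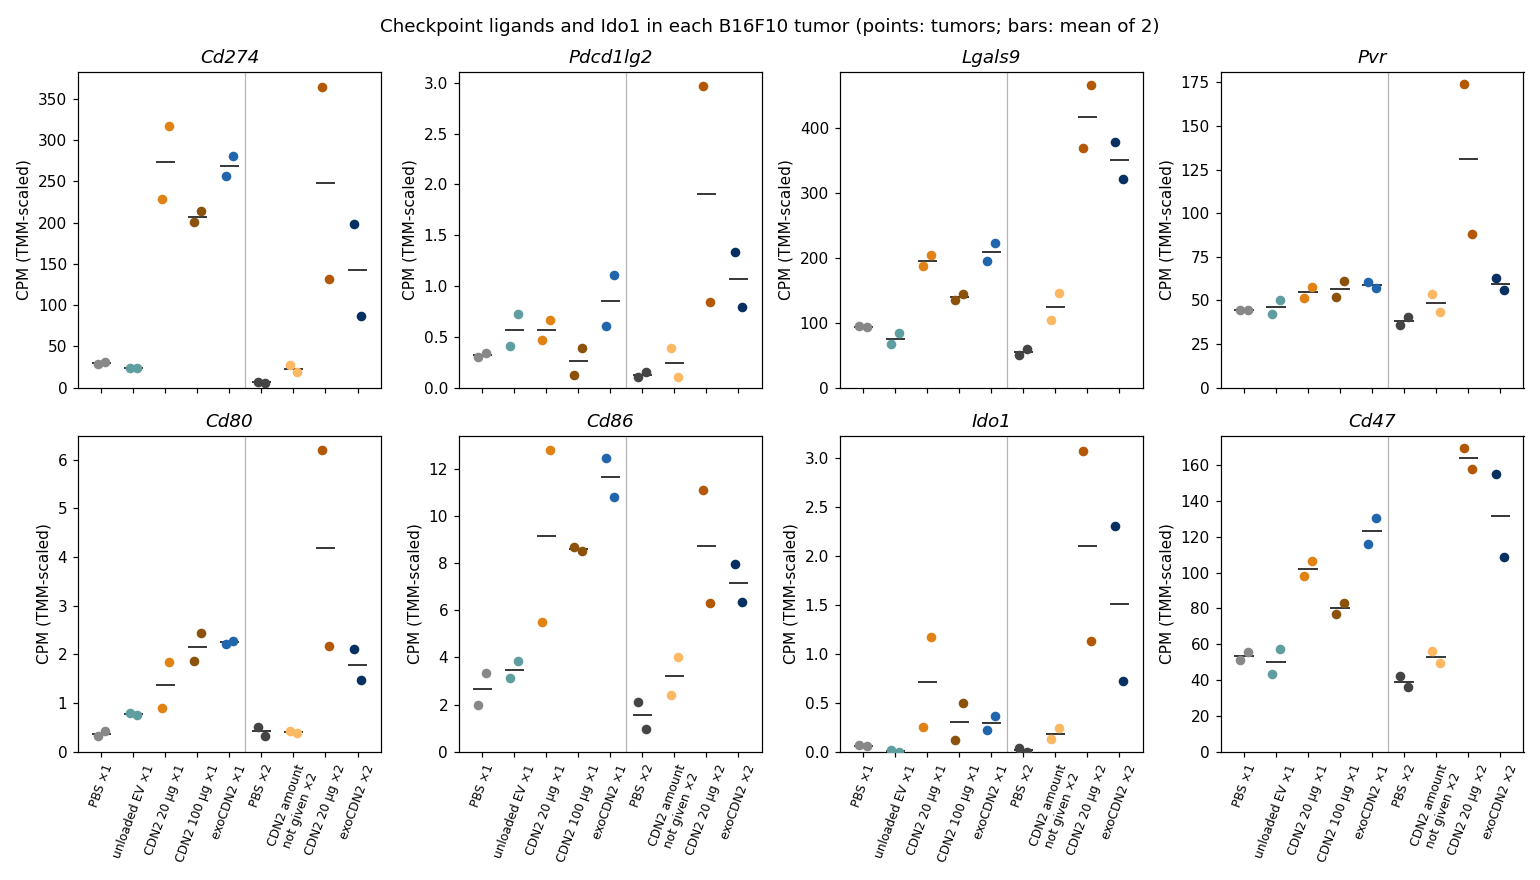
TMM-scaled CPM of each member on a linear axis from 0, with 1 point per tumor and a bar at the mean of the 2 tumors of each group. Cd274 in the PBS and unloaded EV tumors lay between 5.47 and 30.7 CPM and in the tumors given a stated amount of either agonist between 86.6 and 364.5 CPM, and the 2 tumors given 2 doses of CDN2 (20 µg) are far apart for Cd274, Pdcd1lg2, Pvr, Cd80 and Ido1.

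Unloaded EVs were compared with PBS after 1 dose to ask what the carrier does without the agonist. No member passed the test in edgeR's quasi-likelihood fit, where a call required an adjusted p (Benjamini-Hochberg over 16927 genes) under 0.05 and a ratio over 2. None had an unadjusted p under 0.05, and DESeq2 also called 0. Across all genes 0% were called and 540 had an unadjusted p under 0.05. Cd274 was 23.6 and 23.4 CPM with unloaded EVs and 28.9 and 30.7 CPM with PBS, a log2 fold change of -0.34 with a 95% interval from -1.28 to 0.60. That interval allows a fall of more than 2-fold. Lgals9 was 66.9 and 83.5 CPM with unloaded EVs and 94.6 and 93.7 CPM with PBS (-0.32 ± 0.15 SE). Cd47 was close to PBS (-0.08 ± 0.18). Of the 8 members, 3 lay below PBS without overlap and 2 above, as did 24.4% and 19.4% of all genes. Cd80 was 0.799 and 0.751 CPM with unloaded EVs and 0.329 and 0.420 CPM with PBS, and its interval of -0.11 to 2.21 allows a change of more than 2-fold.

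After 1 dose, free CDN2 at 20 µg and exoCDN2 at 0.1 µg were each compared with the same 2 PBS tumors. Cd274 and Lgals9 rose with both. With exoCDN2, Cd80, Cd86 and Cd47 also rose, so that 5 of 8 members were called higher, where 2.2% of all genes were. After CDN2 (20 µg) 2 of 8 were called, where 2.26% of all genes were. No member was called lower in either. All 8 members were above PBS with no overlap in both comparisons, as were 28.5% of all genes with CDN2 (20 µg) and 31.9% with exoCDN2. The median log2 fold change of the members was 1.41 with CDN2 (20 µg) and 1.75 with exoCDN2, or 1.05 and 1.39 without Ido1, beside medians of 0.00 and -0.02 over all genes.

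Cd274 was 28.9 and 30.7 CPM with PBS, 228 and 317 CPM with CDN2 (20 µg), and 256 and 280 CPM with exoCDN2. Each of the treated tumors was more than 7-fold above both PBS tumors. The log2 fold change was 3.19 ± 0.46 (SE; adjusted p = 0.00217, edgeR) with CDN2 (20 µg) and 3.17 ± 0.46 (adjusted p = 0.00227) with exoCDN2. Without PBS tumor 1 the exoCDN2 value was 3.13, with an adjusted p of 0.0513.

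Lgals9 was 94.6 and 93.7 CPM with PBS, 187 and 204 CPM with CDN2 (20 µg), and 195 and 222.5 CPM with exoCDN2. Its log2 fold change was 1.05 ± 0.16 (adjusted p = 0.00245) and 1.15 ± 0.16 (adjusted p = 0.00143). The CDN2 (20 µg) call lay close to the ratio limit and was lost without CDN2 tumor 2 (0.99) and without PBS tumor 2 (1.04, adjusted p = 0.0504). Cd47 was 51.2 and 55.9 CPM with PBS, 98.1 and 106 CPM with CDN2 (20 µg), and 116 and 130.5 CPM with exoCDN2. It rose with exoCDN2 (1.20 ± 0.19, adjusted p = 0.00347), a call lost without PBS tumor 1 (1.14, adjusted p = 0.0729). With CDN2 (20 µg) the adjusted p was 0.0143 but the ratio was 1.91, under the limit of 2.

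The costimulatory ligands were scarce. Cd86 was 1.99 and 3.36 CPM with PBS and 12.5 and 10.8 CPM with exoCDN2 (2.12 ± 0.46, adjusted p = 0.0253). With CDN2 (20 µg) it was 5.48 and 12.8 CPM, and its tumors were more than 2-fold apart (1.77 ± 0.45, adjusted p = 0.0531). Cd80 was 0.329 and 0.420 CPM with PBS, 2.21 and 2.28 CPM with exoCDN2 (2.57 ± 0.52, adjusted p = 0.0186), and 0.897 and 1.84 CPM with CDN2 (20 µg) (1.85 ± 0.53, adjusted p = 0.0806). The exoCDN2 calls of Cd80 and Cd86 were each lost when any 1 of the 4 tumors was left out, at log2 fold changes of 2.41 to 2.75 for Cd80 and 1.79 to 2.54 for Cd86.

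Pdcd1lg2, Pvr and Ido1 did not pass the test after 1 dose. Pdcd1lg2 was 0.307 and 0.340 CPM with PBS and 0.604 and 1.10 CPM with exoCDN2, and its interval of -0.07 to 2.84 reaches well past 2-fold. Pvr was 44.7 and 44.8 CPM with PBS and 60.6 and 56.9 CPM with exoCDN2, and its interval of -0.17 to 0.95 stays within 2-fold. Ido1 had 3 and 3 counts with PBS, at the detection floor of 3 counts per tumor, 10 and 42 with CDN2 (20 µg), and 11 and 16 with exoCDN2. The ratio of its summed counts, scaled for library size, was 10.9 for CDN2 (20 µg) and 4.62 for exoCDN2, with counting intervals of 4.68 to 31.1 and 1.87 to 13.7 that cover counting error but not the spread between tumors.

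Against unloaded EVs in place of PBS, exoCDN2 raised Cd274 (3.50 ± 0.47, adjusted p = 0.00108), Lgals9 (1.46 ± 0.16, adjusted p = 0.000217) and Cd47 (1.28 ± 0.19, adjusted p = 0.00214). These 3 of 8 members, where 2.52% of all genes were called higher, kept their calls without any 1 of the 4 tumors. Cd80 (1.52 ± 0.50, adjusted p = 0.143) and Cd86 (1.73 ± 0.45, adjusted p = 0.0608) did not pass.

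Raising free CDN2 to 100 µg gave calls for Cd274 and Cd80 against PBS, 2 of 8 members where 1.82% of all genes were called higher. Cd274 was 200.2 and 214 CPM (2.81 ± 0.46, adjusted p = 0.00652) and Cd80 was 1.85 and 2.45 CPM (2.52 ± 0.53, adjusted p = 0.0236). The Cd274 call was lost without either PBS tumor (adjusted p = 0.102 for each), and the Cd80 call without any 1 of the 4 tumors. Between 100 µg and 20 µg no member differed by the test. DESeq2 called 0 as well, Lgals9 alone had an unadjusted p under 0.05, and 0.455% of all genes were called in either direction. Lgals9 was 135 and 144 CPM at 100 µg, below both tumors given 20 µg (log2 difference -0.47, interval -0.81 to -0.14, adjusted p = 0.156). Cd47 was 77.1 and 83.2 CPM at 100 µg, also below both (-0.34, interval -0.74 to 0.06). For Cd274 the difference was -0.39 with an interval from -1.32 to 0.54.

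ExoCDN2 (0.1 µg) was then set against free CDN2 (20 µg) after 1 dose, amounts of agonist that differ. No member differed by edgeR or DESeq2, none had an unadjusted p under 0.05, and 0.608% of all genes were called. The log2 difference, exoCDN2 minus CDN2, was -0.03 (interval -0.96 to 0.90) for Cd274 and 0.09 (interval -0.24 to 0.43) for Lgals9. It was 0.10 (interval -0.46 to 0.65) for Pvr and 0.27 (interval -0.14 to 0.67) for Cd47. The intervals of these 4 members stay within 2-fold, while those of Pdcd1lg2, Cd80, Cd86 and Ido1 do not.

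After 2 doses the same question was asked against 2 doses of PBS. All 8 members were called higher with CDN2 (20 µg), where 20% of all genes were. With exoCDN2, 7 of 8 were called higher, all but Pvr, where 8.87% of all genes were. All 8 members were above PBS with no overlap in both comparisons, as were 32.9% and 30.8% of all genes. The median log2 fold change of the members was 3.17 and 2.43, or 2.98 and 2.19 without Ido1, and the median over all genes was 0.00 and 0.01. The CDN2 (20 µg) count was 8 in every alternative, and the exoCDN2 count fell to 3, with Cd274, Lgals9 and Cd47 left, without exoCDN2 tumor 1 or without PBS tumor 2.

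**Figure D2:**
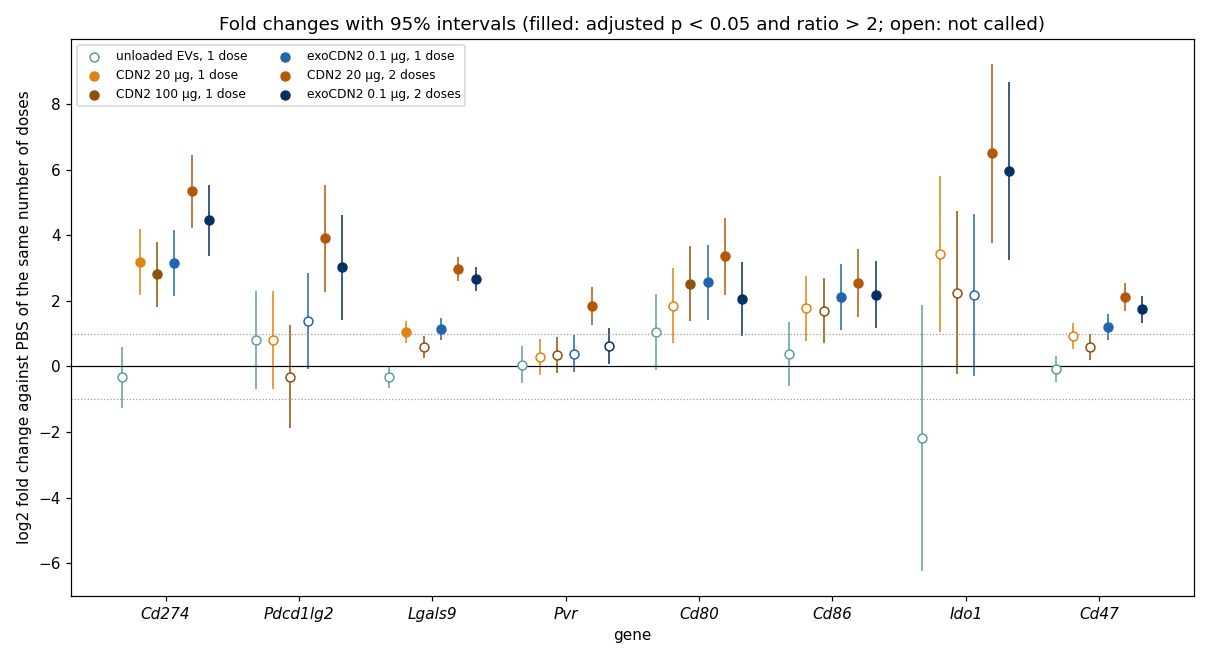
Log2 fold change of each member against PBS of the same number of doses, with 95% intervals from edgeR's fit. Filled points passed the test and open points did not, and dotted lines mark a 2-fold change; the Ido1 points depend on the prior count. The tumors of unstated amount, where Cd274 was not called, are not drawn. Cd274 was called in the 5 comparisons of a stated amount of agonist, from 2.81 to 5.34, and Pvr in the comparison with 2 doses of CDN2 (20 µg), at 1.85.

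Cd274 was 7.41 and 5.47 CPM with 2 doses of PBS, 365 and 132 CPM with CDN2 (20 µg), and 198 and 86.6 CPM with exoCDN2. The lowest treated tumor was more than 11-fold above the highest PBS tumor, although the tumors within each treated group differed by more than 2-fold. The log2 fold change was 5.34 ± 0.52 (adjusted p = 3.02e-05) with CDN2 (20 µg) and 4.46 ± 0.50 (adjusted p = 0.000118) with exoCDN2. Pdcd1lg2 was 0.102 and 0.154 CPM with PBS, 2.96 and 0.839 CPM with CDN2 (20 µg) (3.91 ± 0.75, adjusted p = 0.0014), and 1.34 and 0.795 CPM with exoCDN2 (3.02 ± 0.74, adjusted p = 0.0143). Both PD-1 ligands thus rose with either agonist. The exoCDN2 call of Pdcd1lg2 was lost without exoCDN2 tumor 1 (2.61, adjusted p = 0.107), PBS tumor 1 (2.76, adjusted p = 0.0777) or PBS tumor 2 (3.33, adjusted p = 0.0795).

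Lgals9 was 50.5 and 59.2 CPM with PBS, 369 and 465 CPM with CDN2 (20 µg), and 378.5 and 322 CPM with exoCDN2. Its tumors agreed within each group better than those of Cd274, and it had the smallest adjusted p among the members in both comparisons. The log2 fold change was 2.98 ± 0.17 (adjusted p = 6.06e-07) and 2.66 ± 0.16 (adjusted p = 1.67e-06). Cd47 was 42.1 and 36.3 CPM with PBS, 170 and 158 CPM with CDN2 (20 µg) (2.12 ± 0.19, adjusted p = 1.96e-05), and 155 and 109 CPM with exoCDN2 (1.74 ± 0.19, adjusted p = 9.99e-05). These were the 2 members with the lowest SEs.

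Pvr was called with 1 of the 2 agonists. It was 35.7 and 40.5 CPM with PBS, 174 and 88.2 CPM with CDN2 (20 µg), and 62.7 and 55.8 CPM with exoCDN2. It rose with CDN2 (20 µg) (1.85 ± 0.26, adjusted p = 0.000235) and did not pass with exoCDN2 (0.63 ± 0.26, adjusted p = 0.116). The direct difference, exoCDN2 minus CDN2 (20 µg), was -1.22 ± 0.26 (adjusted p = 0.00538). Pvr was the 1 member of 8 called between the agonists after 2 doses, where 12% of all genes were called lower with exoCDN2. The call rested on tumor 1 of the CDN2 group, since without it the difference was -0.61, under the ratio limit (adjusted p = 0.0241), and it was also lost without exoCDN2 tumor 2 (-1.12, adjusted p = 0.0528) and in a fit of the 4 tumors alone (adjusted p = 0.149). In that tumor melanoma markers were at their lowest (6995 CPM) and neutrophil (782 CPM), fibroblast (1550 CPM) and muscle (2955 CPM) markers at their highest of all 18 tumors. The part of these cell types in the Pvr value was not tested.

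Cd86 was 2.12 and 0.967 CPM with PBS, 11.1 and 6.29 CPM with CDN2 (20 µg) (2.54 ± 0.48, adjusted p = 0.00119), and 7.96 and 6.35 CPM with exoCDN2 (2.19 ± 0.47, adjusted p = 0.00702). Cd80 was 0.510 and 0.330 CPM with PBS, 6.19 and 2.18 CPM with CDN2 (20 µg) (3.36 ± 0.53, adjusted p = 0.000453), and 2.10 and 1.48 CPM with exoCDN2 (2.07 ± 0.52, adjusted p = 0.0162). Per kb, Cd86 exceeded Cd80 in all 18 tumors, by 1.82 and 2.92 times in the tumors given 2 doses of CDN2 (20 µg) and by 2.97 to 10.8 times in the other 16. The exoCDN2 calls of both were lost without exoCDN2 tumor 1 or PBS tumor 2, at adjusted p between 0.0536 and 0.133. Cd80 was lower with exoCDN2 than with CDN2 (20 µg) by a log2 difference of -1.29 ± 0.48 that just missed the threshold (adjusted p = 0.0513).

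Ido1 had 2 and 0 counts with PBS, 58 and 43 with CDN2 (20 µg), and 117 and 51 with exoCDN2. It went from the detection floor to a low but measurable level in all 4 treated tumors. The ratio of summed counts, scaled for library size, was 83.7 for CDN2 (20 µg) and 65.4 for exoCDN2, with counting intervals of 22.6 to 700.4 and 17.8 to 545. The adjusted p in edgeR was 0.00139 and 0.00621, and the exoCDN2 call was lost without exoCDN2 tumor 1 (adjusted p = 0.0511) or PBS tumor 2 (adjusted p = 0.071). The fitted fold changes are not quoted because they depend on the prior count when a group is near 0.

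Between the agonists after 2 doses, the differences of 4 further members changed sign without tumor 1 of the CDN2 (20 µg) group. With all tumors the log2 difference, exoCDN2 minus CDN2, was -0.88 for Cd274, -0.88 for Pdcd1lg2, -0.35 for Cd86 and -0.53 for Ido1. Without tumor 1 of the CDN2 group it was 0.074, 0.30, 0.15 and 0.38. In the other direction, Cd274 was called lower with exoCDN2 without CDN2 tumor 2 (-1.42, adjusted p = 0.00518) or exoCDN2 tumor 1 (-1.57, adjusted p = 0.0419), and Pdcd1lg2 without CDN2 tumor 2 (-1.54, adjusted p = 0.041). Lgals9 (-0.32, interval -0.65 to 0.02) and Cd47 (-0.38, interval -0.78 to 0.02) kept their sign and their intervals stay within 2-fold.

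The PBS tumors themselves differed between 1 and 2 doses. Cd274 was lower after 2 doses of PBS, 7.41 and 5.47 CPM against 28.9 and 30.7 CPM (log2 difference -2.20 ± 0.46, adjusted p = 0.0384), the 1 member of 8 called lower where 1.05% of all genes were. Lgals9 was also lower (-0.77 ± 0.16, adjusted p = 0.0323), under the ratio limit, and 6 of the 8 members lay below without overlap, as did 23.2% of all genes. The Cd274 call was lost when any 1 of the 4 tumors was left out, at log2 differences of -2.0 to -2.44. Leukocyte markers (Ptprc, Coro1a and Laptm5) summed to 67.7 and 84.7 CPM after 1 dose of PBS and to 36.8 and 33.0 CPM after 2, and keratinocyte markers to 115 and 62.4 CPM and to 0.429 and 0.0439 CPM. Their part in the difference was not tested, and the labels do not say whether the dose groups were run together.

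The change against PBS was larger after 2 doses than after 1 for 5 members with CDN2 (20 µg), where 11.7% of all genes were called higher in this test of the difference. They were Cd274 (2.14 ± 0.62, adjusted p = 0.0296), Pdcd1lg2 (3.09 ± 1.01, adjusted p = 0.0474), Lgals9 (1.93 ± 0.22, adjusted p = 0.00107), Pvr (1.56 ± 0.36, adjusted p = 0.0126) and Cd47 (1.19 ± 0.26, adjusted p = 0.0103). With exoCDN2 it was larger for Lgals9 alone (1.52 ± 0.22, adjusted p = 0.00208), where 5.12% of all genes were. The PBS values enter these differences. The Cd274 level in the treated tumors was 228 and 317 CPM after 1 dose of CDN2 (20 µg) and 365 and 132 CPM after 2, and with exoCDN2 it was 256 and 280 CPM after 1 dose and 198 and 86.6 CPM after 2. Lgals9, by contrast, was higher after 2 doses than after 1 in every treated tumor as a level too, at 322 to 465 CPM against 187 to 222.5 CPM. The Lgals9 calls held in all alternatives. The Cd274 and Pvr calls were lost without tumor 1 of the 2-dose CDN2 group (1.16, adjusted p = 0.109, and 0.92, adjusted p = 0.0127) and without tumor 1 of the 1-dose CDN2 group (1.86, adjusted p = 0.116, and 1.41, adjusted p = 0.0596). Cd274 also lost its call without any 1 of the 4 PBS tumors (1.91 to 2.36), and Pdcd1lg2 without any tumor but tumor 2 of the 2-dose CDN2 group (1.88 to 3.37). The Cd47 call was lost without tumor 1 of the 1-dose CDN2 group (1.07, adjusted p = 0.0533) or tumor 2 of the 1-dose PBS group (1.10, adjusted p = 0.0506).

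The pair of tumors given 2 doses of CDN2 with no stated amount was compared with the same PBS tumors. Lgals9 was 104 and 145 CPM and rose (1.18 ± 0.19, adjusted p = 0.00518), the 1 member of 8 called where 0.918% of all genes were higher. Cd274 was 27.9 and 18.4 CPM (1.84 ± 0.44, adjusted p = 0.0785). Both were below all 4 tumors given 2 doses of a stated amount. The Lgals9 call was lost without tumor 2 of the pair (0.92, adjusted p = 0.0713), with all 4 PBS tumors as controls (0.74, adjusted p = 0.533) and in a fit of the groups compared alone (1.15, adjusted p = 0.0734). Cd274 was called in that last fit (1.82, adjusted p = 0.00771), by DESeq2 (1.85, adjusted p = 0.00195) and with no filter on low counts (1.85).

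The members were set beside summed markers of the cells a tumor can hold. After 1 dose of either agonist, summed leukocyte markers stood at 49.1 to 108 CPM, around the 67.7 and 84.7 CPM of PBS, and none of the 3 was called with any agonist. The sum does not show each gene. Their median log2 fold change was 0.17 with CDN2 (20 µg), -0.75 with CDN2 (100 µg) and -0.82 with exoCDN2. Macrophage and monocyte markers, 0 of 8 called, summed to 263 and 332 CPM with PBS and 197 and 195 CPM with exoCDN2. Their sums were 250 and 497 CPM with CDN2 (20 µg) and 213 and 251 CPM with CDN2 (100 µg). Other marker lists held called genes after 1 dose. Neutrophil markers summed to 4.40 and 4.74 CPM with PBS, 12.1 and 28.3 CPM with CDN2 (20 µg), and 59.5 and 36.03 CPM with exoCDN2. Cxcr2 was called with CDN2 (20 µg), where 2.26% of all genes were higher. Cxcr2 and Csf3r, 2 of 4 markers, were called with exoCDN2, where 2.2% were. Red cell (hemoglobin) markers were called higher, 4 of 4, with CDN2 at either amount, beside 2.26% (20 µg) and 1.82% (100 µg) of all genes. They went from 188 and 142 CPM with PBS to 1262 and 2869 CPM at 20 µg and 989 and 1244 CPM at 100 µg. Endothelial markers fell with CDN2 (20 µg), 3 of 4 called where 0.886% of all genes were lower, from 82.3 and 85.2 CPM to 30.3 and 32.4 CPM. T cell markers fell with CDN2 (100 µg), 3 of 6 called where 0.62% of all genes were lower, from 7.19 and 9.24 CPM to 1.39 and 1.43 CPM. With exoCDN2 they summed to 2.34 and 3.27 CPM, below both PBS tumors, with a median log2 fold change of -1.68 and 0 of 6 called. With CDN2 (20 µg) they were 5.13 and 9.88 CPM, also with 0 called. The part of these cells in the members' values was not tested. Cd274 per 100 CPM of leukocyte markers was 42.8 and 36.2 with PBS, and 293 to 435 with CDN2 or exoCDN2 after 1 dose. After 2 doses leukocyte markers rose, all 3 called with both agonists, beside 20% of all genes with CDN2 (20 µg) and 8.87% with exoCDN2. They went from 36.8 and 33.0 CPM with PBS to 228 and 153 CPM with CDN2 (20 µg) and 297 and 189 CPM with exoCDN2. Cd274 per 100 CPM of these markers was then 20.1 and 16.6 with PBS, 160 and 86.2 with CDN2 (20 µg), and 66.7 and 45.9 with exoCDN2. Cd274 was thus above PBS relative to leukocyte markers in every tumor given a stated amount.

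Other members behaved differently on this scale, Cd86 and Pvr among them. Cd86 per 100 CPM of leukocyte markers was 2.95 and 3.97 with 1 dose of PBS and 16.7 and 16.8 with exoCDN2. After 2 doses it was 5.77 and 2.93 with PBS, 2.68 and 3.36 with exoCDN2, and 4.86 and 4.11 with CDN2 (20 µg), so that the groups overlapped. Macrophage and monocyte markers (Csf1r, Adgre1, Cd68 and 5 others) rose alongside, 5 of 8 called with exoCDN2 and 7 of 8 with CDN2 (20 µg). Of all genes 8.87% and 20% were called higher there. The marker sums went from 151 and 143 CPM with PBS to 510 and 335 CPM and to 732 and 420 CPM. Pvr per 100 CPM of leukocyte markers was 97.0 and 123 with 2 doses of PBS, 76.2 and 57.5 with CDN2 (20 µg), and 21.1 and 29.6 with exoCDN2, so that both agonists lay below PBS. Of the other members relative to leukocyte markers after 2 doses, Cd47 lay below PBS with both agonists and Cd80 with exoCDN2. Lgals9 overlapped PBS with both, and Pdcd1lg2 with exoCDN2. Ido1 lay above PBS with both, and Cd80 and Pdcd1lg2 did so with CDN2 (20 µg). The part of infiltrating cells in the members' values was not tested.

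**Figure D3:**
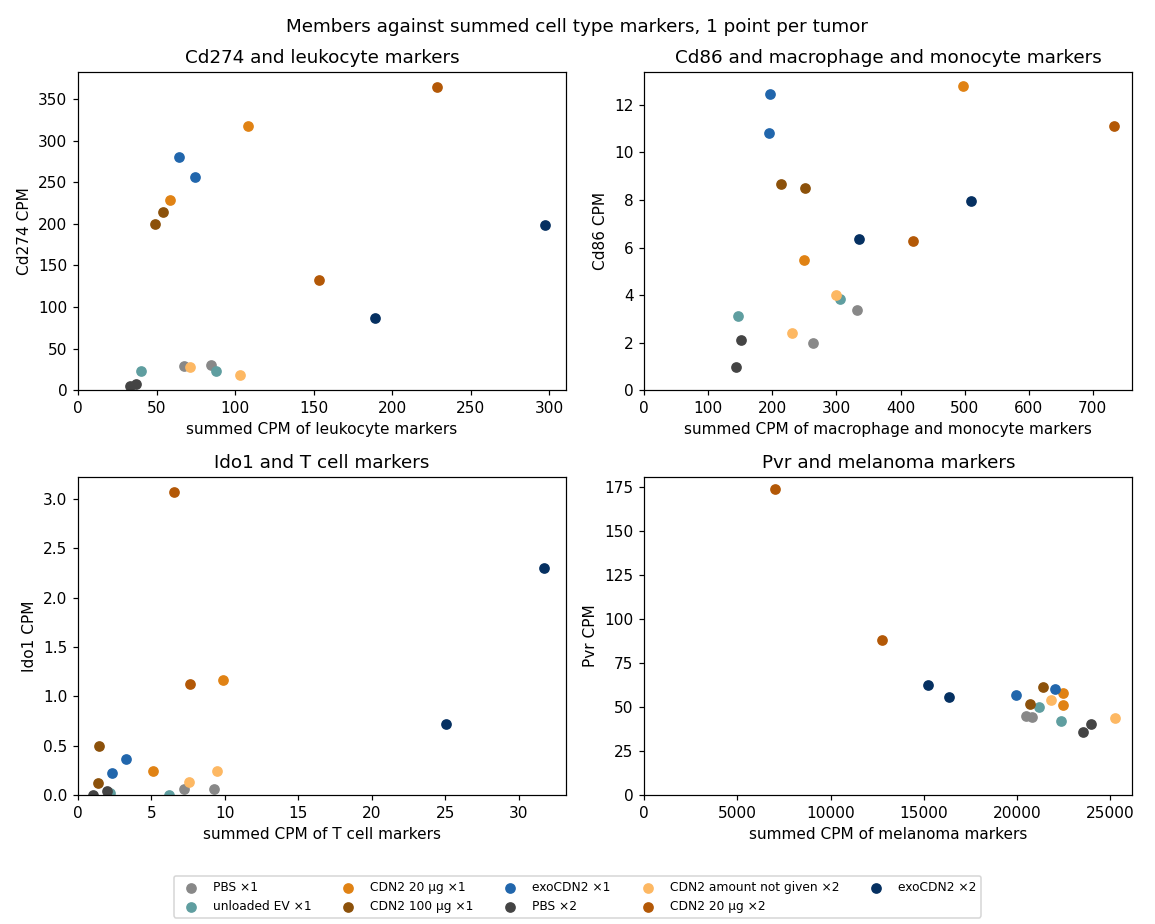
CPM of 4 members against the summed CPM of marker genes in the same tumor, both axes linear from 0, with 1 point per tumor. Cd274 after 1 dose of either agonist lies at 200.2 to 317 CPM with leukocyte markers between 49.1 and 108 CPM, near those of PBS, and Pvr is highest where melanoma markers are lowest, in the tumors given 2 doses of CDN2 (20 µg).

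Receptors of the members were measured in the same libraries, as 9 genes for PD-1, CTLA-4, CD28, TIM-3, TIGIT, CD226, CD96, SIRPα and RGMb. None was called after 1 dose of any agonist, nor with unloaded EVs. After 2 doses 6 of 9 rose with each agonist, beside 20% and 8.87% of all genes, with medians of 2.20 for CDN2 (20 µg) and 3.38 for exoCDN2. With exoCDN2 the smallest p-values were those of Pdcd1, which encodes PD-1 (4.65 ± 0.65, adjusted p = 0.000564), Cd28 (4.30 ± 0.74, adjusted p = 0.00209) and Tigit (3.98 ± 0.69, adjusted p = 0.00216). Among the receptors called higher with CDN2 (20 µg) they were Havcr2, which encodes TIM-3 (2.37 ± 0.45, adjusted p = 0.00125), Pdcd1 (2.92 ± 0.66, adjusted p = 0.0036) and Ctla4 (2.34 ± 0.57, adjusted p = 0.00561). Rgmb, a receptor of PD-L2, fell (-1.17 ± 0.34, adjusted p = 0.0132). Sirpa was lower with a smaller p than any of these, under the ratio limit (-0.96 ± 0.16, adjusted p = 0.000527). It was higher with exoCDN2 than with CDN2 (20 µg), also under that limit (0.70 ± 0.16, adjusted p = 0.00668). Directly compared after 2 doses, 5 receptors were higher with exoCDN2, led by Rgmb (1.33 ± 0.34, adjusted p = 0.0122), Cd96 (2.06 ± 0.64, adjusted p = 0.0275) and Pdcd1 (1.73 ± 0.55, adjusted p = 0.0294), where 7.34% of all genes were. Pdcd1 was itself lower after 2 doses of PBS than after 1 (-3.21 ± 0.65, adjusted p = 0.0326), at 0.163 and 0.110 CPM against 0.855 and 1.74 CPM. T cell markers summed to 31.7 and 25.1 CPM with 2 doses of exoCDN2, 6.56 and 7.60 CPM with CDN2 (20 µg) and 1.98 and 1.01 CPM with PBS, and their part in the receptor values was not tested.

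Other ligands of T cell and myeloid receptors gave a context for the members. Of the 27 listed, 24 passed the filter. After 1 dose, Cd40 and Fgl2 rose with CDN2 (20 µg), Cd200 and Fgl2 with CDN2 (100 µg), and all 3 with exoCDN2, beside 2.26%, 1.82% and 2.2% of all genes called higher. With exoCDN2 Fgl2, a ligand of an inhibitory Fc receptor, had the smallest p (2.33 ± 0.41, adjusted p = 0.00725). After 2 doses 14 rose and Cd276 (B7-H3) fell with CDN2 (20 µg), where 20% of all genes were called higher and 10.6% lower, and 11 rose with exoCDN2, where 8.87% were higher. The largest of these changes was that of H2-T23, which encodes the nonclassical class I molecule Qa-1, at 5.66 ± 0.52 (adjusted p = 2.3e-05) with CDN2 (20 µg) and 5.56 ± 0.52 (adjusted p = 3.03e-05) with exoCDN2. H2-T23 was 8.35 and 8.92 CPM with 2 doses of PBS, 406 and 435 CPM with CDN2 (20 µg), and 546 and 273 CPM with exoCDN2, so that it was of the same order as Cd274. Like Cd274, H2-T23 was lower after 2 doses of PBS than after 1 (-3.20 ± 0.47, adjusted p = 0.00397). The median over the list was 0.21 and 0.16 after 1 dose of CDN2 (20 µg) and exoCDN2, and 2.18 and 1.61 after 2 doses.

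**Figure D4:**
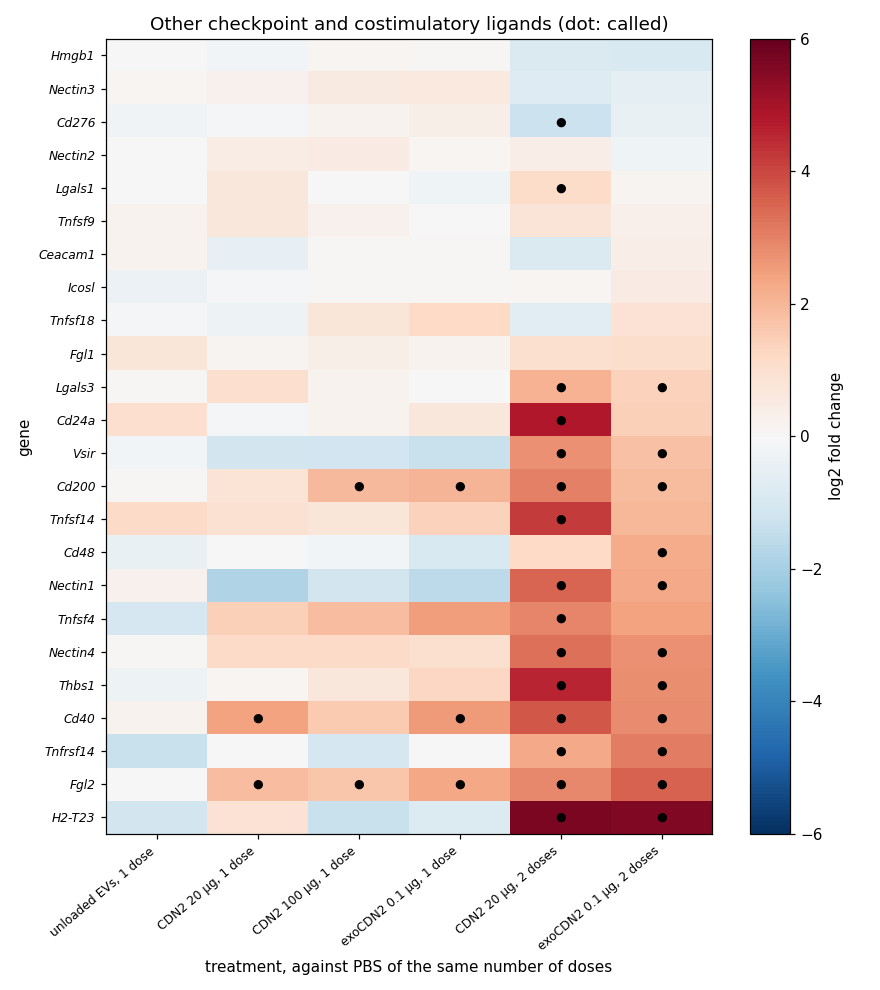
Log2 fold change against PBS of the same number of doses for the 24 other ligands that passed the filter, ordered by their value after 2 doses of exoCDN2, with a dot where the gene was called. After 1 dose the dots fall on Cd40, Fgl2 and Cd200, and after 2 doses on 15 genes with CDN2 (20 µg) and 11 with exoCDN2.

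Genes of the tryptophan and kynurenine pathway did not move with Ido1 as a group. Of 22 listed besides Ido1, 18 passed the filter, with medians of -0.11 and 0.05 after 2 doses of CDN2 (20 µg) and exoCDN2. Ido2, the neighbouring dioxygenase gene, rose with CDN2 (20 µg) (adjusted p = 0.00139), from 0.0204 and 0.0439 CPM with PBS, near the detection floor, to 2.12 and 0.551 CPM. It was called lower with exoCDN2 than with CDN2 (20 µg) (-2.92 ± 0.79, adjusted p = 0.0168). Tph1, which takes tryptophan toward serotonin, was called higher as well, so that 2 of 18 rose where 20% of all genes did. With CDN2 (20 µg) 4 of 18 fell, where 10.6% of all genes did, led by Afmid, Eif2ak4, which encodes the amino acid sensor GCN2, and Ahrr. With exoCDN2, Kyat3 (-1.34 ± 0.23, adjusted p = 0.00218) and Haao (-1.44 ± 0.42, adjusted p = 0.0355) fell and Cyp1b1 rose (1.54 ± 0.43, adjusted p = 0.0292), beside 2.48% of all genes lower and 8.87% higher. After 1 dose of exoCDN2, Kynu rose from 0.0219 and 0.0800 CPM to 0.544 and 1.17 CPM (adjusted p = 0.0332). Tph1 rose from 0.0657 and 0 CPM to 0.383 and 0.322 CPM (adjusted p = 0.0433). These were 2 of 18 beside 2.2% of all genes, and the PBS values of both were near the detection floor.

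The interferon signal that is known to reach Cd274 and Ido1 was followed in 17 genes. After 1 dose 6 rose with CDN2 at either amount and 7 with exoCDN2, beside 2.26% (20 µg), 1.82% (100 µg) and 2.2% of all genes, among them Stat2, Irf9 and Irf1, a transcription factor known to act on the Cd274 promoter. After 2 doses 11 rose with CDN2 (20 µg) and 10 with exoCDN2, beside 20% and 8.87% of all genes. Irf1 was 127 and 146 CPM with 1 dose of PBS, 889 and 1333 CPM with CDN2 (20 µg) (3.03 ± 0.31, adjusted p = 0.000188), and 851 and 1000 CPM with exoCDN2 (2.76 ± 0.31, adjusted p = 0.000345). Ifnb1 was 9.79 and 1.05 CPM with 2 doses of CDN2 (20 µg) and 0.138 and 0.0426 CPM with exoCDN2, with 0 counts in both PBS tumors. In PBS, 6 of the 17 were called lower after 2 doses than after 1, as Cd274 was, beside 1.05% of all genes. Of 3 genes that act on PD-L1 or CD47 protein, Cmtm6, Cmtm4 and Qpctl, none was called against PBS. Cmtm6 was higher but under the ratio limit after 1 dose of exoCDN2 (0.69 ± 0.14, adjusted p = 0.0170). The same held after 2 doses of CDN2 (20 µg) (0.36, adjusted p = 0.0497) and exoCDN2 (0.43, adjusted p = 0.0494). Cmtm4 was lower with exoCDN2 than with CDN2 (20 µg) after 2 doses (-1.60, adjusted p = 0.0259).

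Across all 18 tumors the genes whose log2 CPM was most like each member were found by Pearson r, as a description over tumors that share treatments. For Cd274 they were Tent5a (r = 0.988), Rtp4 (0.981) and Pcgf5 (0.980). For Lgals9 they were Oas3 (0.988), Oas1a (0.986) and Irf7 (0.982), and for Cd47 Trim14 (0.987), Irf5 (0.971) and Isg20 (0.968). Pvr was most like Dusp5 (0.974), Chd7 (0.973) and P2ry2 (0.970). Cd80 was most like Flrt2 (0.974), Ifi205 (0.964) and Trim30c (0.957), and Cd86 like Fgl2 (0.961), Ifi209 (0.956) and Rgs1 (0.952). Ido1 was most like Lag3 (0.942), Phf11b (0.939) and Slamf7 (0.939), and Pdcd1lg2 like Pik3r5 (0.920), Srxn1 (0.896) and Dram1 (0.891). Among the members themselves r ran from 0.599 for Pdcd1lg2 and Cd86 to 0.947 for Lgals9 and Cd47, and was 0.652 for the neighbours Cd274 and Pdcd1lg2.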

How the data were processed

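RNA of 18 whole B16F10 tumors was sequenced on an Illumina HiSeq. The authors used OmicSoft ArraySuite (aligner OSA, GRCm38) and deposited, without normalization, the expected counts that RSEM gave for Ensembl R88 genes. The submitters' processing notes name the build mm10. The expected counts (21608895 to 65983630 per tumor) were rounded and fitted with edgeR 4.0.16 in R 4.3.3, using the quasi-likelihood test, TMM scaling, filterByExpr with a minimum count of 10 and a minimum total of 15, and 1 mean per group for 16 tumors in 8 groups (16927 genes). The 2 tumors with no stated amount of CDN2 entered a second fit of all 18 tumors (17110 genes). A call needed an adjusted p (Benjamini-Hochberg over all genes) under 0.05 and a ratio over 2, the study's own limits. Rounding, TMM and the filter affect low counts most, such as those of Ido1, Pdcd1lg2 and Cd80.

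Groups and replicate numbers came from the labels, and the amount of exoCDN2 from the study. The study describes the 2 tumors of a group as biological replicates, and an exact permutation test of 2 against 2 could not go below p = 0.333. CPM are TMM-scaled counts per 1000000 counts, and CPM per kb divides by the exon union of GENCODE M21 (GRCm38). Every member, called or not, is named, and of each further list the called genes with the smallest p, up to 3 in each direction. Alternatives, read for the members alone, were DESeq2 1.42.0, RLE scaling, no filter, other sets of tumors and a replicate block. Further ones were pooled PBS tumors, no ratio limit and leaving out each tumor in turn. The script was tested on simulated data. The members and lists were chosen with earlier results of these data known.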

Additional observations from a re-analysis of the deposited data

Results flagged for a closer look

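Of the values above, 6 were marked because the change against PBS differed between 2 doses and 1 dose in the test of that difference. With CDN2 (20 µg) the log2 difference, 2 doses minus 1 dose, was 2.14 for Cd274, 3.09 for Pdcd1lg2, 1.93 for Lgals9, 1.56 for Pvr and 1.19 for Cd47. With exoCDN2 it was 1.52 for Lgals9. The groups of 2 tumors are too small for a check on outlying samples. The level of Cd274 in PBS moved in the opposite direction (-2.20, 2 doses minus 1 dose), and the part of this in the Cd274 difference can be read from the levels given above.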

How the results depend on the processing

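With CDN2 (20 µg) after 1 dose the number of members called, 2, became 5 with DESeq2, 5 with no filter on low counts, 6 with the PBS tumors pooled over doses and 4 in the fit of 14 tumors without the group given 2 doses of CDN2 (20 µg), an alternative chosen after seeing the data. With no filter it was 4 for CDN2 (100 µg), 6 for exoCDN2 against unloaded EVs, 3 for the exoCDN2 effect of 2 doses minus 1 dose, 3 for the tumors of unstated amount, and 2 for exoCDN2 against CDN2 (20 µg) after 2 doses. That last count was also 2 with DESeq2, RLE scaling or all 18 tumors and 0 in a fit of the groups compared alone. Against unloaded EVs it was 5 in such a fit and 5 in that of 14 tumors, and for the CDN2 effect of 2 doses minus 1 dose 2 in such a fit. It was 2 with no ratio limit for PBS of 2 doses against 1, and 2 with DESeq2 and 0 with pooled PBS tumors for the unstated amount. Leaving out 1 tumor at a time gave 1 to 5 calls for CDN2 (20 µg), 0 to 1 for CDN2 (100 µg) and 1 to 3 for exoCDN2 after 1 dose, 3 to 7 for exoCDN2 and 0 to 4 for exoCDN2 against CDN2 (20 µg) after 2 doses, 0 to 0 for PBS, 1 to 6 for the CDN2 effect and 0 to 1 for the unstated amount. The alternatives were read for the members alone, so these counts stand without the share of all genes called under the same setting. Why a count moved was not tested.

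Some log2 values changed sign, and none was called at the changed sign. At the unchanged sign, Cd274 and Pdcd1lg2 were called lower with exoCDN2 than with CDN2 (20 µg) after 2 doses in some fits without 1 tumor, as given above. With the PBS tumors pooled, unloaded EVs against PBS gave 0.38 for Cd274, 0.018 for Lgals9 and 0.12 for Cd47, CDN2 (100 µg) gave 0.20 for Pdcd1lg2, and the unstated amount gave 0.018 for Cd80. The ranges on leaving out 1 tumor, where the sign changed, were as follows. For unloaded EVs against PBS they were -0.083 to 0.18 for Pvr and -0.30 to 0.11 for Cd47. For CDN2 (100 µg) against PBS the range was -1.38 to 0.29 for Pdcd1lg2. For exoCDN2 against CDN2 (20 µg) after 1 dose they were -0.23 to 0.23 for Cd274, -0.017 to 0.19 for Lgals9, -0.13 to 1.08 for Cd86 and -1.97 to 0.23 for Ido1. For CDN2 at 100 µg against 20 µg they were -0.066 to 0.17 for Pvr, -0.57 to 0.66 for Cd86 and -2.50 to 0.31 for Ido1. For exoCDN2 against CDN2 (20 µg) after 2 doses they were -1.57 to 0.074 for Cd274, -1.54 to 0.30 for Pdcd1lg2, -0.70 to 0.15 for Cd86 and -1.56 to 0.38 for Ido1. For PBS of 2 doses against 1 the range was -0.18 to 0.45 for Cd80, for the exoCDN2 effect -0.38 to 0.76 for Cd86, and for the unstated amount -0.25 to 1.58 for Pdcd1lg2 and -0.34 to 0.29 for Cd80.

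No pairing of same-numbered tumors is stated, and their mean correlation was 0.0136 over all pairs of groups. Between the groups compared it reached 0.319, for exoCDN2 against CDN2 (20 µg) after 2 doses. It was 0.233 for exoCDN2 against unloaded EVs and 0.220 for the unstated amount against PBS. The replicate block changed 1 count of calls, from 5 to 4 for the CDN2 effect, where Pdcd1lg2 fell out, and left 0, 2, 2, 5, 3, 0, 0, 8, 7, 1, 1, 1 and 1 in the others. For CDN2 (20 µg) against PBS after 2 doses the correlation was -0.136, and with the numbers crossed, chosen after seeing the data, the count was 8. With 2 tumors a group and few counts, the levels of Ido1, Pdcd1lg2 and Cd80 limit what these comparisons could show.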
